A study of Mus musculus with 4 samples.

Results

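The 10 genes described here belong to programmed cell death pathways, and some of their products act downstream of receptors that A20 regulates. The genes are *Ripk1*, *Ripk3*, *Mlkl*, *Casp8*, *Cflar*, *Fadd*, *Casp1*, *Casp4*, *Gsdmd* and *Nlrp3*. They were chosen by name, with earlier results of these data known. They were matched by gene ID in single-cell RNA-Seq data of mouse small intestinal lamina propria (SILP). All 10 were found among the 31950 gene IDs listed for both libraries. The WT library and the A20ZF7 library each hold a pool of cells from 2 mice of 12 weeks of age, untreated as far as the labels say, with the strain not given in the sources used here. A20ZF7 mice carry a point mutation of A20 (gene *Tnfaip3*) on both alleles that abolishes binding of linear (M1) ubiquitin by the 7th zinc finger. The mutation is in the germline, so it is present in every cell type described. A negative selection had favoured T cells and innate lymphoid cells (ILCs), and 60000 cells per genotype went into a kit that reads the 5′ ends of transcripts.

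A20 is an enzyme and scaffold that edits and binds ubiquitin chains on complexes below TNF receptors and Toll-like receptors. When these complexes are not held in check, RIPK1, FADD and caspase-8 can assemble into a complex that drives apoptosis, while cFLIP, encoded by *Cflar*, keeps caspase-8 from full activation. When caspase-8 is blocked, RIPK1 and RIPK3 pass the signal to MLKL, which breaks the plasma membrane in necroptosis. Pyroptosis uses other proteins: NLRP3 senses danger and activates caspase-1, caspase-4 (the mouse enzyme is also called caspase-11) binds bacterial lipopolysaccharide in the cytosol, and both caspases cut gasdermin D, whose fragments open pores. In the gut, excess of any of these forms of death damages the barrier. All of these proteins are regulated after translation, so a transcript level does not measure how much cell death occurred.

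With 1 library per genotype there was no replicate, and no test between genotypes was made. Intervals are 95% intervals that cover counting error only. Genotype cannot be told apart from library, depth or the gene list, which differed between the libraries. Nor can it be told apart from the removal of barcodes with the hashtag antibodies of both mice, done in WT alone. After the filters there were 19883 WT cells (median depth 882 UMIs, or unique molecules) and 36876 A20ZF7 cells (median depth 952), and 1033 barcodes occurred in both libraries. Marker gates placed 14571 WT and 26563 A20ZF7 cells into cell types, and 13 types had at least 50 cells in each library. T cells and other lymphocytes that no subset gate took are labelled Other T and Unassigned lymphocyte in the plots. Epithelial cells (358 in WT, 38 in A20ZF7) were described for WT alone. The summed markers of each gate were highest in its own cell type. Cells were gated on these same markers, so this is no check of the names. In A20ZF7 the ILC1 or NK list was 6328 CPM (UMIs per 1000000 UMIs of the type) in its gate and 6199 CPM in ILC2. That name is therefore weak. The ILC3 list was 6157 CPM in WT and 4783 CPM in A20ZF7 in its gate, and 3674 and 2912 CPM in Th17-like T cells. Th17-like markers, some of them on both lists, were 1694 and 3274 CPM in ILC3. These 2 types are thus not cleanly apart. *Tnfaip3* itself measured 1511 CPM in WT and 1385 CPM in A20ZF7 T cells, a ratio of 0.917 (0.889–0.945), and 207 and 532 CPM in fibroblasts, a ratio of 2.56 (2.41–2.72). Counts of 5′ ends cannot show a point mutation, so this is no check of the genotype.

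Each gene was described by its CPM, the UMIs of all cells of a type summed within a library, and by the ratio of CPM in A20ZF7 over WT. A pair of gene and cell type was assessed where the rate of the gene, pooled over both libraries, would give at least 10 UMIs in each. This held for 68 of 130 pairs. The pooled rate lies closer to that of the library with more UMIs of the type, A20ZF7 for most types. There the filter can keep genes higher in A20ZF7 and drop genes lower in it. Pairs of all genes passed the same filter. Of these, 18 were at least 1.5-fold higher in A20ZF7 (26.5%, against 15.9% of the 78520 pairs of all genes), and for 12 of them the interval excluded 1. Only 3 were at least 1.5-fold lower (4.41%, against 10.1% of all pairs), with none of their intervals excluding 1. The median ratio was 1.15. Since the genes were chosen with earlier results of these data known, these shares are a description only. *Casp4* alone gave 10 of the 18 higher pairs. Without *Casp4*, 8 of 56 pairs were at least 1.5-fold higher, a share below the 15.9% of all pairs, and the median ratio was 1.11. The 3 lower pairs were all of other members than *Casp4*. The 8 higher pairs were 3 of *Ripk3*, 2 of *Ripk1*, 2 of *Casp1* and 1 of *Casp8*. The counts changed when free RNA, the RNA in barcodes with 1 to 50 UMIs, was taken off at a scaled level. Then 8 of 64 assessed pairs were higher and 17 lower. That setting took a larger share off A20ZF7 (0.405) than off WT (0.103) and did not rescale what was left to a common total. All its ratios are therefore lower than rescaled ratios would be, and no share over all genes was computed. These counts cannot be read as a turn in direction.

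**Figure D1:**
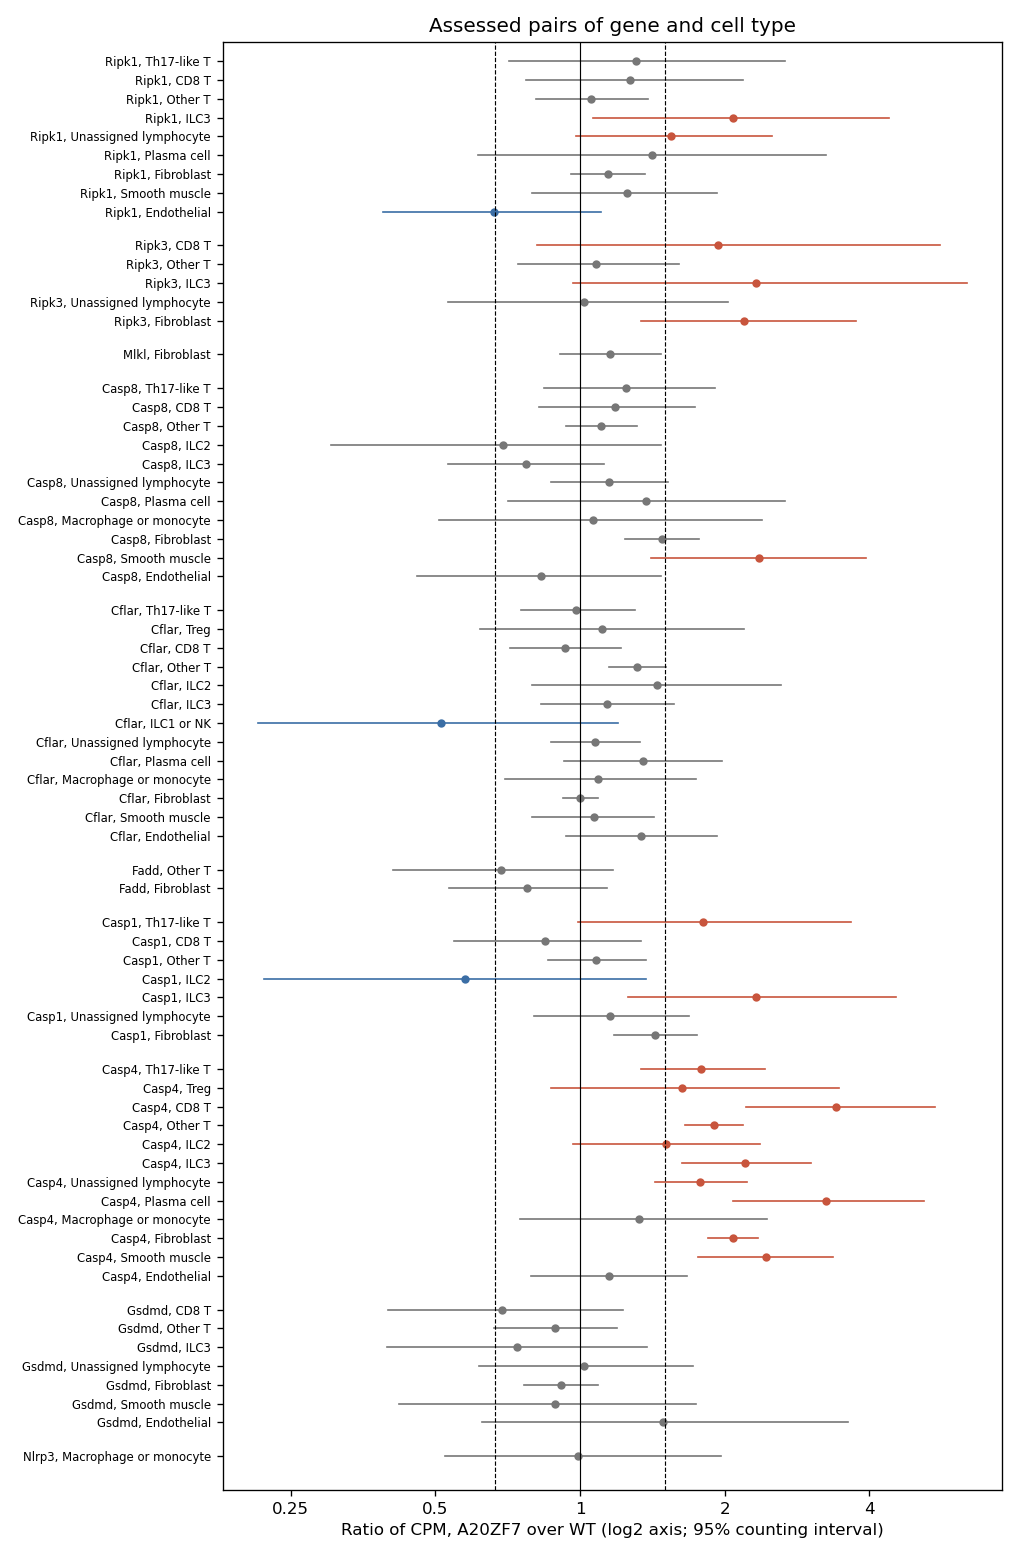
Ratio of CPM in A20ZF7 over WT (x axis, log2 scale) for the 68 assessed pairs of gene and cell type, with lines for the 95% counting interval. Red points are at least 1.5-fold higher and blue points at least 1.5-fold lower in A20ZF7, the dashed lines mark that fold, and *Casp4* holds 10 of the 18 red points.

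Read by cell type, the members stood out from all genes most in ILC3, where 4 of 7 assessed members were at least 1.5-fold higher in A20ZF7 and none lower (15% and 13.3% of all genes were). Th17-like T cells had 2 of 5 higher and none lower (12.8% and 7.45% of all genes), and Treg had 1 of 2 higher (11.6%) and none lower (6.39%). CD8 T cells had 2 of 7 higher (12.2%) and none lower (7.78%), and T cells that no subset gate took had 1 of 8 higher (12.5%) and none lower (7.24%). These counts are small, and *Casp4* is among the higher members in each of these types. In ILC3, *Ripk1* and *Ripk3* rested on 12 and 7 WT UMIs. A20ZF7 had more UMIs than WT in each of these types, so the pooled rate used for assessment can favour genes higher in A20ZF7. ILC2 had 1 of 4 higher (13.3%) and 1 lower (15.3%), while the single assessed member in ILC1 or NK cells was lower (15.8% of all genes were higher and 16.6% lower). Unassigned lymphocytes had 2 of 7 higher (12.7%) and none lower (8.9%), and plasma cells 1 of 4 higher (52.3%) and none lower (3.95%). Outside these, fibroblasts had 2 of 9 higher (12.3%) and none lower (11.4%), and smooth muscle 2 of 5 higher (14.6%) and none lower (13.1%). Macrophages or monocytes had none of 4 past the fold (17% of all genes were higher and 9.56% lower), and endothelium 1 of 5 lower (13.2%) and none higher (15.4%).

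Markers of other cell types also differed between the libraries within a gate. Summed markers of lymphocytes, measured in gated fibroblasts, were 427 CPM in WT and 1027 CPM in A20ZF7, a ratio of 2.41, and all 10 markers were detected in both libraries. The same ratio was 2.62 in smooth muscle, 2.18 in endothelium and 2.29 in plasma cells. In the other direction, the summed fibroblast markers in Th17-like cells were 185 CPM in WT and 186 CPM in A20ZF7, a ratio of 1.01, while plasma cell markers there had a ratio of 2.92, from 294 and 857 CPM, with 4 of the 8 (*Derl3*, *Tnfrsf17*, *Eaf2* and *Fkbp11*) at 0 in WT. Stromal and plasma cells of A20ZF7 thus held more RNA of lymphocyte markers than those of WT. Barcodes with the hashtag antibodies of both mice were removed from WT alone, and the part of that step in this difference was not tested. The part of this RNA in the ratios of the cell death genes was not tested either. Free RNA was subtracted as an alternative, after scaling by the immunoglobulin RNA found in lymphocytes. This moved 20 of 64 ratios outside their counting interval, all 20 downwards, and 7 of the 20 were of *Cflar*. More was taken off A20ZF7 than off WT, and what was left was not rescaled to a common total. The method itself therefore lowers the ratios, and their shared direction is no result about free RNA.

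Among the necroptosis genes, *Ripk1*, which encodes the kinase at the branch between survival and death (ENSMUSG00000021408, 13:34002363-34037147, + strand, GRCm38), was read in nearly every cell type and was highest in endothelium. There it measured 112 CPM (81.7–151) in WT and 74.5 CPM (48.2–110) in A20ZF7. In WT the endothelial interval lay wholly above those of 11 of the other 13 types, and in A20ZF7 above those of 4 of 12, so the lead of endothelium was clear of most types in WT alone. The ratio in endothelium was 0.663 (0.389–1.11), and after each cell was thinned to 500 UMIs it was 1.33, so its direction changed with thinning. With free RNA taken off, *Ripk1* was 0.604 in the T cells that no subset gate took and 0.687 in fibroblasts, from 1.06 and 1.14. These values were not rescaled and are lower than rescaled ratios would be. In ILC3, *Ripk1* was 20.4 CPM (10.5–35.6) in WT and 42.5 CPM (29.9–58.6) in A20ZF7, a ratio of 2.08 (1.06–4.39) that rests on 12 and 37 UMIs. The other *Ripk1* pair past the fold was in lymphocytes that no subset gate took, with 26.6 and 41.1 CPM (ratio 1.55, 0.981–2.51). Over all T cells, where *Ripk1* had 114 and 486 UMIs, the levels were 31.1 and 35.8 CPM, a ratio of 1.15 (0.935–1.42). The gene overlaps *Serpinb6a* in the annotation, and the strand setting of the counting is not given in the sources used here.

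*Ripk3*, the kinase that phosphorylates MLKL (ENSMUSG00000022221, 14:55784995-55788865, − strand), was read mainly in lymphocytes. Lymphocytes held 65.9% (57.0–74.0) of its 129 UMIs in WT and 78.7% (74.4–82.6) of its 408 UMIs in A20ZF7, where they held 33.1% and 56.9% of all UMIs. In lymphocytes its level was 15.1 CPM (12.0–18.7) in WT and 19.2 CPM (17.2–21.4) in A20ZF7. In fibroblasts it was 3.34 CPM (2.07–5.1) in WT and 7.33 CPM (5.76–9.18) in A20ZF7, and in plasma cells it was 1.76 and 1.15 CPM. WT epithelial cells had 7.85 CPM (4.06–13.7) of *Ripk3*. Macrophages or monocytes had 20.8 CPM (4.29–60.8) in WT and 6.25 CPM (0.757–22.6) in A20ZF7, from 3 and 2 UMIs. The *Ripk3* ratio passed 1.5 in 3 of 5 assessed types. These were fibroblasts at 2.19 (1.34–3.75), ILC3 at 2.32 (0.969–6.37) and CD8 T cells at 1.94 (0.812–5.61). Lymphocyte markers in the same fibroblasts differed 2.41-fold. With the level of free RNA taken off, without rescaling, the fibroblast *Ripk3* ratio was 1.95, which is lower than a rescaled ratio would be. That smaller value is therefore no result about free RNA. In CD8 T cells the *Ripk3* ratio was 1.18 where barcodes with both hashtags were kept. In the largest T cell group, T cells that matched no subset gate, the levels were 15.7 and 16.97 CPM and the ratio 1.08 (0.741–1.60).

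*Mlkl*, the executor of necroptosis (ENSMUSG00000012519, 8:111311797-111338177, − strand), had the reverse distribution. Fibroblasts held 69.3% (61.3–76.5) of its 153 UMIs in WT and 71.6% (65.9–76.8) of its 278 UMIs in A20ZF7. They held 36.9% and 34.9% of all UMIs in these libraries. Its level in fibroblasts was 16.9 CPM (13.8–20.4) in WT and 19.4 CPM (16.8–22.3) in A20ZF7, a ratio of 1.15 (0.907–1.47), and this was the only type where it could be assessed. T cells together had 1.91 CPM (0.769–3.94) in WT, from 7 UMIs, and 4.19 CPM (3.18–5.43) in A20ZF7, a ratio of 2.19 (0.998–5.7). The kinase *Ripk3* and its substrate *Mlkl* were therefore read mainly in different cells, lymphocytes for the one and fibroblasts for the other. Endothelium was high for *Mlkl* as well, with 28.1 CPM (14–50.3) in WT and 11.9 CPM (3.25–30.5) in A20ZF7, intervals that overlap.

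**Figure D2:**
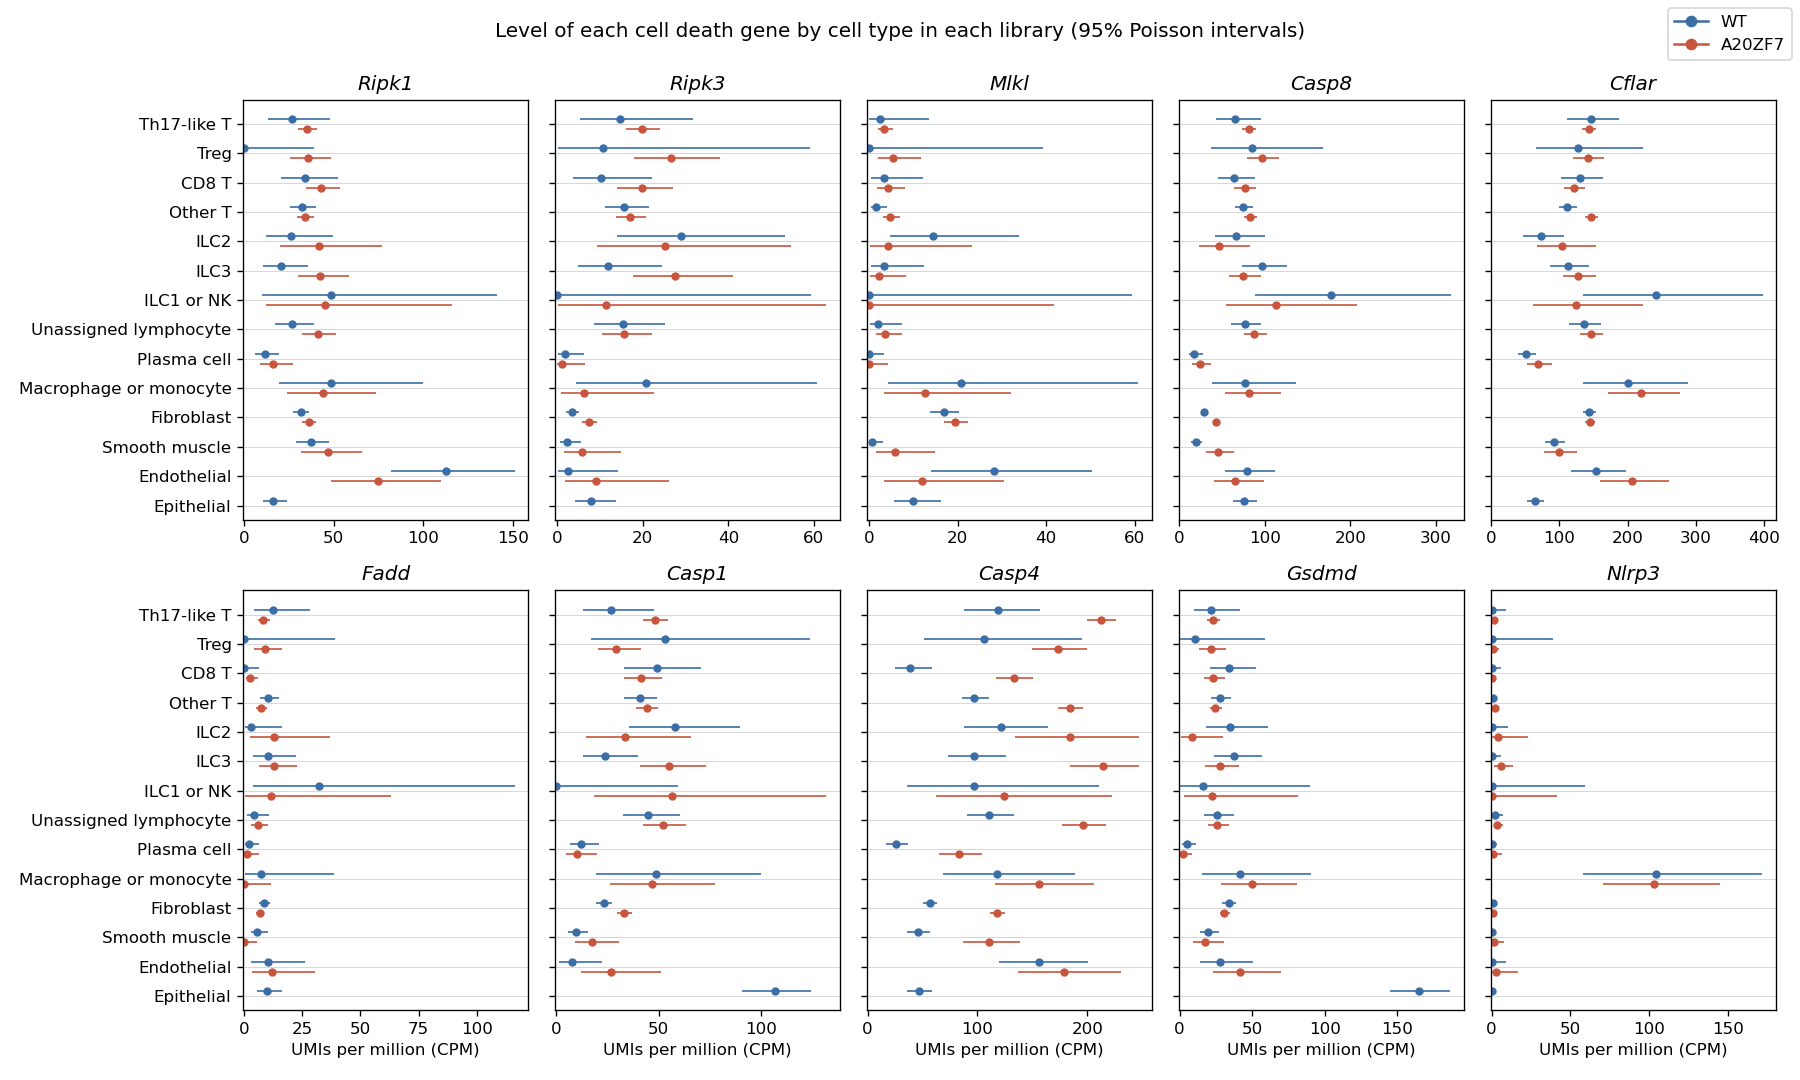
Level of each gene in CPM (x axis, a scale of its own per panel) by cell type (y axis) in WT (blue) and A20ZF7 (red), with 95% Poisson intervals, and epithelial cells for WT alone. *Nlrp3* stands out in macrophages or monocytes, *Gsdmd* and *Casp1* in epithelial cells, *Ripk1* in endothelium, and the red *Casp4* points lie to the right of the blue ones in each of the 13 shared types.

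Of the apoptosis genes, *Casp8*, the initiator caspase of death receptors (ENSMUSG00000026029, 1:58795374-58847503, + strand), measured 76.5 CPM (69.4–84.1) in WT and 82.4 CPM (78.1–86.9) in A20ZF7 lymphocytes, a ratio of 1.08 (0.967–1.20). It was lower in stroma and plasma cells. Fibroblasts had 29.3 CPM (25.2–33.8) in WT and 43.3 CPM (39.3–47.5) in A20ZF7, which gives 1.48 (1.24–1.77), just under the fold. Smooth muscle cells had 19.2 CPM (13.4–26.7) and 45.2 CPM (30.7–64.1), a ratio of 2.35 (1.4–3.93), the only *Casp8* pair of 11 past the fold. With the level of free RNA taken off, the stromal ratios were 0.885 in fibroblasts and 1.67 in smooth muscle. That setting did not rescale the remainder, which makes its ratios lower than rescaled ones would be. The smaller values are therefore no result about free RNA. Among fibroblasts that could be assigned to a WT mouse, *Casp8* was 47.2 CPM (34.9–62.4) and 35.4 CPM (25.8–47.6), next to 22.7 CPM in fibroblasts without an assigned mouse. The A20ZF7 level lay between those of the WT mice. Over the settings run, the fibroblast ratio ranged from 0.885, with free RNA taken off and not rescaled, to 2.71, in cells with no marker of another lineage.

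*Cflar*, which encodes the caspase-8 inhibitor cFLIP (ENSMUSG00000026031, 1:58711508-58758884, + strand), was assessed in all 13 types and was never 1.5-fold higher. Macrophages or monocytes had 201 CPM (135–289) in WT and 219 CPM (171–277) in A20ZF7, and endothelium 153 CPM (117–197) and 206 CPM (160–260). Fibroblasts, the type with the most UMIs behind it (905 and 1476), had 144 CPM in each library and a ratio of 1.002 (0.922–1.09). The ratio over all T cells was 1.19 (1.07–1.32), from 119 and 141 CPM, an interval above 1 but a difference under the fold. With free RNA taken off and not rescaled, the fibroblast ratio of *Cflar* was 0.740 and that in CD8 T cells 0.634. Both are lower than rescaled ratios would be. The only pair past the fold was ILC1 or NK cells, with 242 CPM (135–398) in WT and 124 CPM (62–222) in A20ZF7 from 15 and 11 UMIs. That interval of the ratio, 0.214 to 1.20, includes 1. *Fadd*, the adaptor that joins caspase-8 to death receptors (ENSMUSG00000031077, 7:144577318-144582463, − strand), was read from few UMIs in every type. Its levels were 10.2 CPM (6.66–14.9) in WT and 7.0 CPM (5–9.53) in A20ZF7 in the T cells that no subset gate took, and 8.43 and 6.54 CPM in fibroblasts. Both assessed ratios were below 1 (0.686 and 0.777), and both intervals included it. *Fadd* overlaps the antisense gene *Faddos*, which is among the listed IDs as well.

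Of the pyroptosis genes, *Nlrp3*, the sensor of the best-known inflammasome (ENSMUSG00000032691, 11:59541568-59566956, + strand), was the most restricted by level. It measured 104 CPM (58.2–172) in WT macrophages or monocytes and 103 CPM (71–145) in A20ZF7, from 15 and 33 UMIs, a ratio of 0.992 (0.524–1.97). In each library that interval lay wholly above those of 12 other types. In WT, 10 of the 14 types had no *Nlrp3* UMI at all. For fibroblasts, which had enough depth, the level was 0.795 CPM (0.258–1.86) in WT and 1.07 CPM (0.536–1.92) in A20ZF7. Free RNA held 1 and 3 UMIs of it. A UMI was seen in 11.02% (6.16–17.8) of WT macrophages or monocytes at a median of 900 UMIs per cell and in 0.0904% of WT fibroblasts at a median of 1025.

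*Gsdmd*, whose product forms the pyroptotic pore (ENSMUSG00000022575, 15:75862327-75867408, + strand), and *Casp1*, whose product cuts it (ENSMUSG00000025888, 9:5298517-5307265, + strand), were highest in WT epithelial cells. *Gsdmd* was 165 CPM (145–187) there, with an interval above those of all 13 other types. *Casp1* was 107 CPM (90.9–124) there, with an interval above those of 11. A *Gsdmd* UMI was found in 44.1% (38.9–49.4) of these cells at a median of 4336.5 UMIs, and in 4.75% (2.79–7.49) after thinning to 500 UMIs. Within the cell types that could be compared, *Gsdmd* had ratios from 0.688 to 1.49, with none of the 7 past the fold. With free RNA taken off they were 0.646 in fibroblasts, 0.557 in T cells that no subset gate took and 0.406 in smooth muscle. These were not rescaled and are lower than rescaled ratios would be. In fibroblasts it was 33.9 CPM (29.5–38.7) in WT and 30.9 CPM (27.6–34.5) in A20ZF7.

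*Casp1* lay on opposite sides of 1 in different ILC subsets, a difference that was not tested. In ILC3 it was 23.8 CPM (13–39.9) in WT and 55.2 CPM (40.7–73.2) in A20ZF7, a ratio of 2.32 (1.26–4.55). One WT mouse had 42.1 CPM (15.5–91.6) from 6 UMIs and the other 15.9 CPM (3.29–46.6) from 3, and the ratio to the first alone was 1.31, under the fold. In ILC2 it was 58.0 CPM (35.4–89.5) in WT and 33.5 CPM (14.4–65.9) in A20ZF7, a ratio of 0.577 (0.22–1.37) from 20 and 8 UMIs. Only the ILC3 interval excluded 1. In Th17-like T cells *Casp1* was 26.7 CPM (13.3–47.8) in WT, from 11 UMIs, and 48.2 CPM (42.2–54.8) in A20ZF7, a ratio of 1.80 (0.99–3.66). In CD8 T cells the levels were 49.2 and 41.5 CPM, a ratio of 0.844 (0.545–1.34). ILC3 had the most members past the fold of any type, 4 of 7 assessed (*Ripk1*, *Ripk3*, *Casp1* and *Casp4*), as given above. The 3 other ILC3 members (*Casp8*, *Cflar* and *Gsdmd*) had ratios of 0.771, 1.14 and 0.738.

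*Casp4*, the lipopolysaccharide-sensing caspase (ENSMUSG00000033538, 9:5308828-5336783, + strand), was higher in A20ZF7 in all 12 cell types where it was assessed. In Th17-like T cells it was 119 CPM (88–157) in WT and 212 CPM (199–226) in A20ZF7, from 49 and 1022 UMIs, a ratio of 1.78 (1.34–2.43). In CD8 T cells it was 39.0 CPM (24.7–58.6) and 133 CPM (117–150), the largest ratio, 3.40 (2.22–5.47). In ILC3 it was 96.9 CPM (73.4–126) and 214 CPM (184–247), a ratio of 2.21 (1.63–3.02). Intervals of the levels did not overlap between the genotypes in any of these lymphocyte groups. T cells that no subset gate took had 97.3 CPM (85.5–110) and 185 CPM (174–196), a ratio of 1.90 (1.65–2.19). The ratio was 1.63 (0.869–3.46) in Treg and 1.51 (0.968–2.36) in ILC2, both with intervals that included 1.

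Outside lymphocytes, fibroblasts had 56.6 CPM (50.9–62.8) of *Casp4* in WT and 118 CPM (111–125) in A20ZF7, a ratio of 2.08 (1.85–2.35), beside the 2.41-fold difference in lymphocyte markers. Smooth muscle had 45.5 CPM (36.2–56.4) and 111 CPM (87.2–139), a ratio of 2.43 (1.76–3.36). Plasma cells had 25.6 CPM (17.1–36.7) and 83.0 CPM (64.9–104), a ratio of 3.25 (2.08–5.18). The plasma cell value needs care, since the median ratio of all 5160 genes assessed in plasma cells was 1.53, and the *Casp4* ratio after thinning was 1.56. Macrophages or monocytes (ratio 1.33, 0.752–2.45) and endothelium (1.15, 0.79–1.67) were within the fold. In endothelium, the WT type with the highest *Casp4*, 156 CPM (119–200) stood against 179 CPM (136–230) in A20ZF7. The share of T cells with a *Casp4* UMI was 7.71% (6.88–8.61) in WT and 18.8% (18.1–19.5) in A20ZF7 at medians of 766 and 977 UMIs, and 4.28% (3.66–4.97) and 9.65% (9.12–10.2) after each cell was thinned to 500 UMIs.

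The *Casp4* difference was also in free RNA. There *Casp4* measured 62.6 CPM (50.4–76.7) in WT and 135 CPM (110–163) in A20ZF7, a ratio of 2.15 (1.61–2.88). Of the other 9 members, *Ripk1* at 1.71 (1.01–2.86) and *Cflar* at 1.35 (1.01–1.80) had free RNA intervals above 1, and 7 had intervals that included it. Taking the scaled level of free RNA off left 1.40 in Th17-like cells, 2.40 in CD8 T cells and 1.43 in T cells that no subset gate took. It left 1.36 in unassigned lymphocytes, 1.26 in fibroblasts, 1.44 in smooth muscle, 0.832 in endothelium and 0.913 in macrophages or monocytes. What was left was not rescaled to a common total, so all of these are lower than rescaled ratios would be. The values below 1 cannot be read as a reversal, nor the smaller ratios as a part due to free RNA. Of the 11117 genes assessed in all T cells, 12.4% were at least 1.5-fold higher, and 5.67% had a higher ratio than *Casp4* at 2.07 (1.84–2.32). Of 1387 genes assessed in all 12 types, 3 were at least 1.5-fold higher in every one, and *Casp4* was not among them. No gene in the annotation overlaps *Casp4*, and none of the IDs listed for 1 library alone that could be placed lies over it, but just 110 of the 1746 IDs listed for WT alone could be placed.

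The WT mice gave a measure of spread between animals for part of the WT library. Hashtag antibodies assigned 4657 cells to one mouse and 5457 to the other, and 9768 cells had no assigned mouse. Over all classified cells *Casp4* was 79.5 and 80.7 CPM in the mice and 56.6 CPM in cells without one. *Gsdmd* was 32.8 and 30.2 CPM against 49.6 CPM. In T cells without an assigned mouse *Casp4* was 94.4 CPM. The A20ZF7 mice could not be told apart, because the deposited antibody counts of the A20ZF7 sample were identical to those of WT. Over all T cells *Casp4* was 95.03 CPM (78.9–114) in one WT mouse and 85.1 CPM (72.0–99.8) in the other, next to 186 CPM (179–194) in A20ZF7. In fibroblasts it was 61.6 CPM (47.5–78.7) and 49.9 CPM (38.3–64.0), next to 118 CPM. Both WT mice lay below the A20ZF7 level in all 10 cell types with enough cells, and in 5 of these both upper bounds lay below the lower bound of A20ZF7. Between the WT mice, 6 of 35 pairs of member and cell type were past 1.5-fold in either direction (17.1%, against 16.5% of 41075 pairs of all genes), and 2 had intervals that excluded 1. Both of the latter were *Casp4*: smooth muscle, with 33.0 CPM (14.3–65.1) and 104 CPM (68.3–151), and lymphocytes that no subset gate took, with 89.6 CPM (59.5–129) and 153 CPM (115–198). In smooth muscle the higher WT mouse reached 104 CPM against 111 CPM in A20ZF7, and with that mouse alone the ratio was 1.07.

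**Figure D3:**
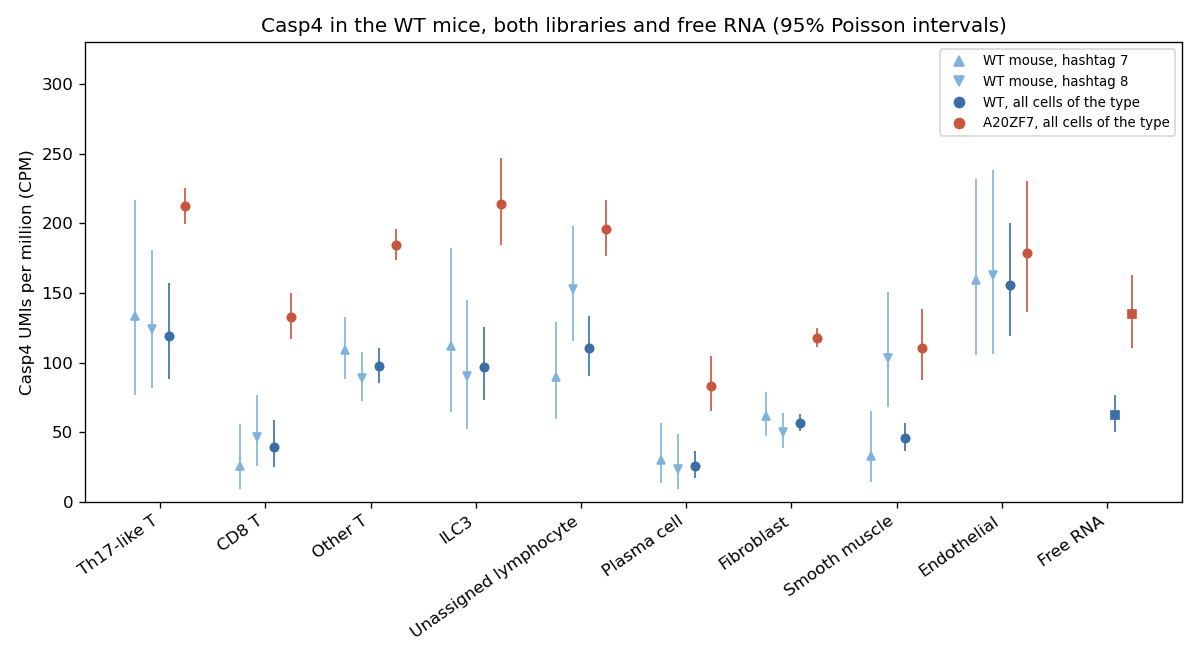
*Casp4* in CPM (y axis) for the WT mice apart (triangles), the whole WT library (blue circles), A20ZF7 (red circles) and free RNA (squares), by cell type, with 95% Poisson intervals. The red points lie above both WT mice in each type shown, by little in smooth muscle (104 against 111 CPM) and endothelium.

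*Casp4* lies next to *Casp1* on chromosome 9, with 1562 bases between the annotated end of *Casp1* and the start of *Casp4*. Their ratios differed over all T cells, but not in every cell type. Over all T cells *Casp1* was 40.7 CPM in WT and 44.0 CPM in A20ZF7 (ratio 1.08, 0.902–1.30) where *Casp4* had a ratio of 2.07. The ratios of *Casp1* and *Casp4* were alike in Th17-like T cells (1.80 and 1.78) and ILC3 (2.32 and 2.21). *Casp1* had the lower ratio in CD8 T cells (0.844 and 3.40), T cells that no subset gate took (1.08 and 1.90) and ILC2 (0.577 and 1.51). The same held in unassigned lymphocytes (1.16 and 1.78) and fibroblasts (1.43 and 2.08). The windows of 250 bases before a RefSeq start of each gene (GRCm38.p6, + strand) are shown because these neighbours differed over all T cells. Capitals mark each match, on either strand, to GGG and CC with any 5 bases between them, a general form of the site bound by NF-κB, and overlapping matches form 1 run of capitals.
*Casp4*, chr9:5308599-5308848: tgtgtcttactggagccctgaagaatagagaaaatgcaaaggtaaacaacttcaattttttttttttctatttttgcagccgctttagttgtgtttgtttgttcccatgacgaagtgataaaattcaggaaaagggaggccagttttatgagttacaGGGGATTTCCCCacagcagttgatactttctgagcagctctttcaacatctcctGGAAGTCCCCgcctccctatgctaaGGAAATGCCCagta
*Casp1*, chr9:5298267-5298516: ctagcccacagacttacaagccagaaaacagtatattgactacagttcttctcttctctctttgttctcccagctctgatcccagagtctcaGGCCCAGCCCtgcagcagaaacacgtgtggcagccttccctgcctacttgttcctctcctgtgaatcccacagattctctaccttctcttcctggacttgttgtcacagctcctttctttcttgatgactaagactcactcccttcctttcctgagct

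The *Casp4* window held 5 matches, of which 3 overlap each other between 93 and 82 bases before the start. The others lie from 39 to 30 and from 14 to 5 bases before the start. The GENCODE start of *Casp4* given above lies upstream of this RefSeq start, and the last match falls within the gene so annotated. The *Casp1* window held 1 match. Such matches are common. Of 32851 promoter windows of mouse genes, read over the same 250 bases before the start, 45.8% held at least 1 and 10.7% held 3 or more. A stricter form, GGG and TTTCC with any 2 bases between them, had 2 matches in the *Casp4* window and none in the windows of the other members. At least 1 match to it was in 1.41% of all windows. This form was chosen after the *Casp4* matches were seen. Windows were found for 9 of the 10 members, 12 windows in all. TTCNNNGAA, a form of the STAT site, had 2 matches in 1 *Ripk1* window and none in the others (7.02% of all windows had at least 1), and GAAA repeated with any 2 bases between, a form of the interferon response element, had none (2.98% of all). A match describes letters and is not a measured site.

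Summed over all classified cells, without regard to cell type, the members gave other ratios than within types. *Gsdmd* was 40.4 CPM in WT and 26.1 CPM in A20ZF7, a ratio of 0.644 (0.580–0.715), although none of the 7 types where it was assessed reached that fold. WT epithelial cells alone held 36.6% (33.0–40.3) of its 689 UMIs, and without epithelial cells the ratio was 0.920. *Ripk3* had an overall ratio of 1.84 (1.502–2.25), and 1.46 when the A20ZF7 levels of the 13 types were weighted by the share of UMIs each type had in WT. *Nlrp3* went from 1.90 (1.21–3.07) to 1.65 by the same weighting. *Casp4* was 2.31 (2.16–2.46) overall and 1.99 with the WT makeup.

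**Figure D4:**
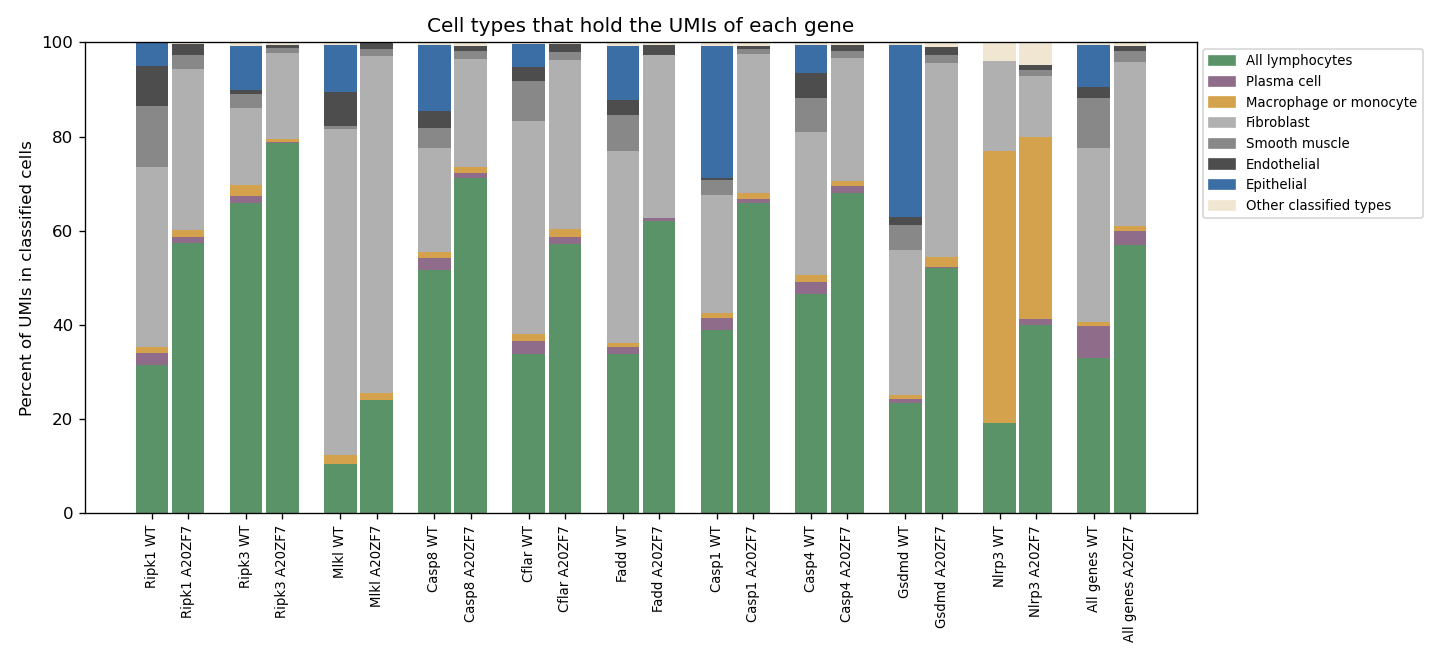
Percent of the UMIs of each gene in classified cells (y axis) by the cell type that held them, for WT and A20ZF7, with all genes together at the right. In WT, epithelial cells hold 36.6% of the *Gsdmd* UMIs, macrophages or monocytes 57.7% of the *Nlrp3* UMIs, and fibroblasts 69.3% of the *Mlkl* UMIs. In A20ZF7, macrophages or monocytes hold 38.8% of the *Nlrp3* UMIs and lymphocytes 40%.

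Other genes of the same pathways, 60 in 4 lists, showed no common direction in T cells. Over all T cells 7 of 55 assessed genes were past the fold upwards (12.4% of all genes were) and 6 downwards (6.79% of all genes), with a median ratio of 1.04 against 1.02 for all genes. The highest was *Il1b*, the cytokine that caspase-1 matures, with 3 and 130 UMIs or 0.819 and 9.56 CPM (ratio 11.7, 3.91–57.3). Macrophages or monocytes had 777 and 879 CPM of it (1.13, 0.905–1.42). The part of RNA from other cells in the T cell value was not tested. In all T cells *Pmaip1*, which encodes the BH3-only protein NOXA, was 47.0 and 104 CPM (2.21, 1.89–2.61). *Apaf1*, the scaffold of the apoptosome, was 72.6 and 160 CPM (2.21, 1.94–2.52). The lowest was *Tnf*, at 32.2 and 13.2 CPM (0.409, 0.322–0.520). *Fasl*, the ligand of the death receptor Fas, followed at 78.7 and 35.4 CPM (0.450, 0.388–0.522), then *Bbc3*, which encodes PUMA, at 16.4 and 9.27 CPM (0.566, 0.413–0.783). Th17-like cells were 312 of 3787 T cells in WT and 3642 of 11500 in A20ZF7, so these sums pool subsets in different shares. Within Th17-like cells *Fasl* was 31.6 and 24.7 CPM (0.783, 0.441–1.51), *Apaf1* 80.1 and 178 CPM (2.22, 1.57–3.25) and *Pmaip1* 36.4 and 107 CPM (2.94, 1.77–5.30). *Tnf* was 55.8 and 15.8 CPM there (0.283, 0.175–0.472), from 23 and 76 UMIs. The rate pooled over both libraries put it below the limit to be assessed. Over all T cells, apoptosis genes stood at both ends, 3 of 19 past the fold upwards and 4 downwards, while none of the 6 necroptosis genes was past it.

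In Th17-like T cells 8 of 37 genes of the lists were past the fold upwards (12.8% of all genes) and 1 downwards (7.45%). In macrophages or monocytes these were 4 of 25 upwards (17%) and 1 downwards (9.56%). The highest there were *Bcl2l11*, which encodes the BH3-only protein BIM, at 62.4 and 131 CPM (2.10, 1.01–4.92), *Tab2* at 139 and 272 CPM (1.96, 1.20–3.37) and *Xiap* at 48.6 and 81.3 CPM (1.67, 0.708–4.57). The lowest were *Bax* at 153 and 96.9 CPM (0.635, 0.356–1.15), *Ninj1* at 201 and 138 CPM (0.684, 0.418–1.13) and *Txnip* at 395 and 291 CPM (0.736, 0.523–1.04). In fibroblasts 19 of 57 genes were past the fold upwards (12.3% of all genes) and 4 downwards (11.4%), and among the inflammasome and pyroptosis genes 7 of 14 upwards and 2 downwards, with a median of 1.65. Lymphocyte markers in these fibroblasts differed 2.41-fold, as given above, and their part in these counts was not tested.

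**Figure D5:**
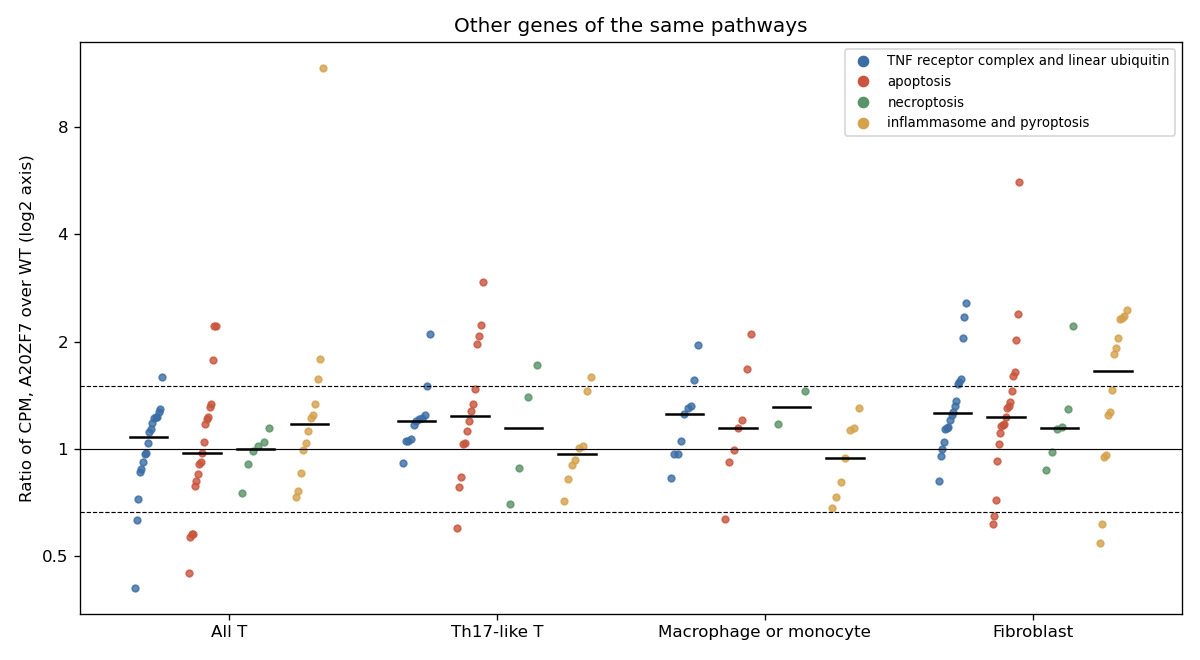
Ratio of CPM in A20ZF7 over WT (y axis, log2 scale) of each assessed gene of the 4 pathway lists in 4 cell groups, with bars at the list medians and dashed lines at 1.5-fold. Genes of the lists lie on both sides of 1 in T cells, and the inflammasome and pyroptosis list has the highest median, 1.65, in fibroblasts.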

How the data were processed

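UMI counts per gene and barcode, unfiltered, were deposited by the authors, and matrix headers name Cell Ranger 8.0.0 (7.1.0 for the antibody matrix) where the submitters' notes name 7.1 with mm10. The WT and A20ZF7 libraries (35289432 and 54587004 UMIs) were counted against lists of 33696 and 32285 gene IDs. The 31950 shared IDs, with 99.67% and 96.59% of the UMIs, were used. The A20ZF7 antibody files were identical to those of WT and were not used. Cells had 200 to 2500 genes, at most 15% mitochondrial UMIs and at least 500 UMIs. WT barcodes with 2 hashtags by HTODemux (Seurat 5.3.0, R 4.3.3, quantile 0.99) were removed, and no other doublet caller was run. A cell took a lineage with at least 2 of its 8 to 10 markers and at least 2 times as many as of any other list, and lymphocytes were then split by subset markers. *Trgc1*, *Trgc2* and *Trgc4* were not among the shared IDs, and γδ T cells were too few. Under Python 3.11.15, scripts with scipy 1.17.1, pandas 2.3.3, matplotlib 3.10.9 and numpy 2.4.6 computed CPM with exact Poisson intervals, ratios with exact conditional intervals and shares with Clopper-Pearson intervals. With 1 library per genotype, edgeR and DESeq2 were not run. Free RNA was scaled by *Igha*, *Igkc* and *Jchain* in lymphocytes (0.103 in WT, 0.405 in A20ZF7). What was left after taking it off was not rescaled to a common total. The ratio script was tested on simulated data, and 15 alternative settings were run. Genes are all 10 members, the 3 highest and 3 lowest pathway genes in T cells and in macrophages or monocytes, and the 2 genes most like each member, of which 1 is not reported here. *Tnfaip3* is named as the mutated gene, and *Serpinb6a* and *Faddos* as overlaps. Members and lists were chosen with earlier results of these data known.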

Additional observations from a re-analysis of the deposited data

Results flagged for a closer look

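*Ripk1* was past 1.5-fold in opposite directions in different cell types: A20ZF7 over WT was 2.08 in ILC3 and 1.55 in lymphocytes that no subset gate took, and 0.663 in endothelium. *Casp1* was so too, at 1.80 in Th17-like T cells and 2.32 in ILC3 against 0.577 in ILC2. The difference between cell types was not tested, since each genotype is 1 library, and only the ILC3 intervals excluded 1.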

How the results depend on the processing

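Recomputed under 14 planned settings and 1 chosen after seeing the data (without the barcodes found in both libraries), 797 of 839 ratios stayed within their counting interval, 41 moved outside it, and 1 that had been past the fold changed direction: *Ripk1* in endothelium, 1.33 with each cell thinned to 500 UMIs. In all, 79 of the 839 lay on the other side of 1, 26 of them with free RNA taken off. The count of pairs at least 1.5-fold higher, 18, was 11 with a minimum of 1000 UMIs, 9 with no marker of another lineage, 8 with the free RNA level taken off and 11 with 30 expected UMIs. The count of lower pairs, 3, was 1 with 1000 UMIs, 1 with 3 or more lineage markers, 1 without WT mouse 1, 1 after thinning, 17 with free RNA taken off, 7 with 3 expected UMIs and 1 with 30. Several of these settings assess fewer pairs (34 with no marker of another lineage), but free RNA left 64. The free RNA setting did not rescale what was left, so its ratios are lower than rescaled ones would be. Its counts cannot be read as a turn in direction. The *Casp4* ratio was above 1 in every setting run in 10 types, and not in endothelium (lowest 0.832) and macrophages or monocytes (lowest 0.913). Both of these lowest values came with free RNA taken off and not rescaled. The WT mouse settings also drop cells with no assigned mouse. The type with the highest level in WT kept first place in A20ZF7 for *Ripk1*, *Casp8*, *Gsdmd* and *Nlrp3* among the 13 shared types. No paired analysis was possible because mice were pooled and the genotypes share no pairing. With 79 WT Treg cells and 74 WT ILC1 or NK cells, 3 UMIs correspond to 31.9 and 48.3 CPM.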

Other observations

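Over 27 profiles (cell types by library, which share libraries and depth), the genes most like the members by Pearson correlation of log2(CPM + 10), among 11783 genes, were *Etv6* (0.888) and *Hif1a* (0.851) for *Casp4*, *Znfx1* (0.861) and *Socs3* (0.835) for *Ripk1*, *Gm48236* (0.839) and *Gna15* (0.816) for *Ripk3*, and *Slco2b1* (0.879) and *Ddah1* (0.860) for *Mlkl*. For *Casp8* they were *Arrdc1* (0.872) and *Slc20a1* (0.869), for *Cflar* *Enox2* (0.885) and *Wwp1* (0.878), and for *Fadd* *Znhit2* (0.747) and *Lcor* (0.708). For *Casp1* they were *Pet100* (0.834) and *Dera* (0.809), and for *Gsdmd* *Gpd2* (0.864). *Nlrp3*, with 111 UMIs, was not ranked. Among the members themselves, the pair most alike was *Ripk3* and *Casp1* (0.68) and the least alike *Fadd* and *Casp1* (-0.25).

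The 3 genes at least 1.5-fold higher in A20ZF7 in all 12 cell types where *Casp4* was assessed were *Zc3h7a*, *Areg* and *Tnfsf8*, with geometric mean ratios of 6.47, 4.26 and 3.76. They were named after their values were seen.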
